A study of Drosophila melanogaster with 3 samples.

Results

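Of the 8143 peak summits in the authors' reproducible list for abd-A-GFP, 648 lay in no annotated gene and more than 5000 bp from the nearest annotated transcript start. They made up 7.96% of the list (95% Clopper-Pearson interval 7.38 to 8.57, counting error only). The rule used position alone, on the dm6 assembly with transposon records left out, and did not use peak strength or sequence. The members fell in 597 distinct intervals with a median width of 476 bp, and 99 members shared an interval with another member. Members sharing an interval take the same replicate peak, so they repeat its value.

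The study was a chromatin immunoprecipitation with sequencing (ChIP-seq) of 1 group, with 3 biological replicates of whole Drosophila melanogaster embryos, male and female pooled, collected at 4 to 24 hours. The line was transgenic and stably expressed abd-A with GFP fused at its C-terminus, and the precipitation used an antibody to GFP. Chromatin was sheared to fragments of 200 to 800 bp. There was no second condition, so the comparisons are with other peaks and with the DNA available. The labels do not state the promoter of the tagged gene, its copy number or the state of the untagged alleles. A control library was not analysed here. Whole embryos hold many cell types, so fewer cells with a bound site and less signal per cell cannot be told apart.

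The homeodomain protein abd-A, encoded in the Bithorax complex with the Hox genes Ubx and Abd-B, sets the identity of abdominal segments. Hox proteins bind short AT-rich words, often beside the partner homeodomain proteins Exd and Hth. In flies many developmental genes are controlled by enhancers lying in the introns or in the DNA between genes, some far from the start they act on. A peak far from a start does not show which gene, if any, it acts on, so the genes named here are those on either side of the gap.

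Short sequences around the summits show the words the results turn on. Each line gives the summit base and 50 bp on each side, 5′ to 3′ on the plus strand, in RefSeq's release 6 genome, which has the dm6 coordinates. Capitals mark TTTATG and its reverse complement CATAAA, the 6-base word that stood out most at these summits. Members 6, 7, 9 and 15 are the members among the 20 strongest that hold it, members 22 and 25 hold it at lower ranks and were picked for that, and member 12, beside abd-A itself, holds none.
Member 6, NijA to CG43245, chr3L:10724979-10725079: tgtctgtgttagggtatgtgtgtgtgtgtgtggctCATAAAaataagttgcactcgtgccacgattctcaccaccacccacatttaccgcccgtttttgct
Member 7, exex to RNaseX25, chr3L:7958728-7958828: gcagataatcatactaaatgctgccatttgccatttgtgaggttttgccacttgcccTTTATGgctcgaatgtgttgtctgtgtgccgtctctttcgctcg
Member 9, Wnt6 to Wnt10, chr2L:7352882-7352982: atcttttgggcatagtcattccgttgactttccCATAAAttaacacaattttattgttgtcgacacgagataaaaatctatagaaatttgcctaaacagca
Member 15, near tsh, chr2L:21847066-21847166: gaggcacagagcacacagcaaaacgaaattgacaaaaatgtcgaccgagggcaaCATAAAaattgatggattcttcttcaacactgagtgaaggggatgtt
Member 22, beside Doc2, chr3L:9025318-9025418: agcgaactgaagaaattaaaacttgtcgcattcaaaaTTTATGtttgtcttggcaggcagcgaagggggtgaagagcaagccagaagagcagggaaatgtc
Member 25, beside Aps, chr3L:10953778-10953878: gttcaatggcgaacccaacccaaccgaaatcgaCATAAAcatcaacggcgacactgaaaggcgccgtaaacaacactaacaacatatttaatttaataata
Member 12, beside abd-A, chr3R:16806291-16806391: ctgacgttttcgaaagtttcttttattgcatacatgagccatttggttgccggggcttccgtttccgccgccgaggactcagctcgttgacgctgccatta

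Within 50 bp of the summit, 157 of 648 members held TTTATG or CATAAA, or 24.2% (95% interval 21.0 to 27.7). At positions 500 bp to either side the share was 14.8%, and over all 8143 IDR summits it was 17.6%. The word was picked because it ranked first among all 2080 words of 6 bases, reverse complements joined, by excess at member summits over flanks. Its excess is therefore a description and carries no test. Other IDR summits also held the word more often than their flanks, 17.0% against 13.1%, though peaks at starts did not, at 10.8% against 10.9%. By its excess over flanks in other IDR peaks the word ranked 15. It contains the TTTAT core known from Abd-B, the posterior neighbour of abd-A among Hox proteins, and a match shows only that the letters are there.

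The word was also more frequent at far intergenic summits than at other peaks in each replicate list. Among the 8143 strongest peaks of each replicate, 25.2%, 23.6% and 25% of far intergenic summits held it, against 17.0%, 17.0% and 17.1% of the other summits. All 3 far intergenic shares lay above all 3 others, with a difference of 7.51 ± 0.815 percentage points (SD, n = 3). The word was picked at member summits of the IDR list, which was made from these replicates. This agreement is therefore a description and not independent evidence. The share was lowest at peaks within 500 bp of a start, 11.1% ± 0.687. Intronic summits over 5000 bp from a start had 22.3% ± 0.727. They were below the far intergenic summits in each of the 3 replicates, by 2.28 ± 0.146 points. These SDs leave out the counting error over regions. In the IDR list the share was 22.1% (interval 20.1 to 24.1) in these intronic peaks and 24.2% (21.0 to 27.7) in members. The intervals overlap, so the IDR counts alone do not separate these classes. Intergenic summits 500 to 5000 bp from a start had 20% ± 0.719, or 4.54 ± 1.56 points less than the far intergenic summits. Their IDR interval, 18.1 to 22.7, also overlaps that of members. Intronic summits at that nearer distance had 17.7% ± 0.645.

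Base composition differed between summits and flanks. Summits of members were 54.3% A or T and their flanks 62.2%. The other classes also had less A or T at summits, with 54.6% against 61.1% in far intronic peaks and 55.7% against 59.9% at starts. Among the 192 words with a single C or G the median difference between member summit and flank was -3.09 percentage points. TTTATG, joined with CATAAA, stood at 9.41, and the next at 3.86, TCATAA, which overlaps it. The part that composition plays in the excess over flanks or in the difference from other peaks was not tested. Within the members the share was 28.7%, 20%, 31.0%, 22.3% and 19.2% in 5 equal classes from the strongest to the weakest, with intervals that overlap. By chromosome arm it ran from 22.7% on 2L to 25.8% on 2R. It was 16.2% (interval 8.67 to 26.6) among the 74 members over 20 kb from a start.

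**Figure D1:**
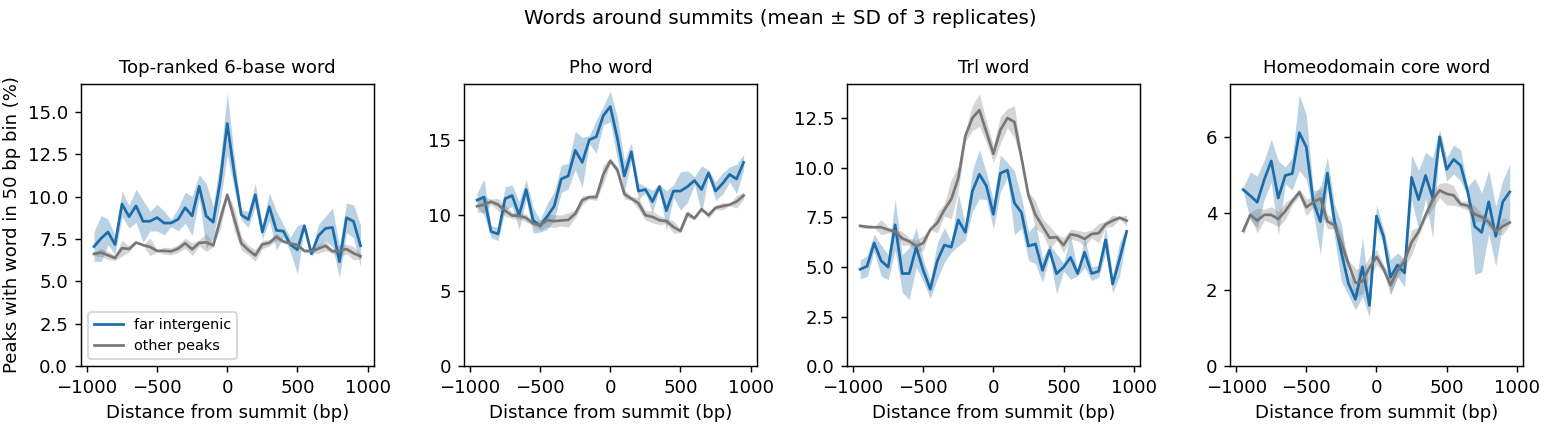
Share of peaks (percent, y) with a word in each 50 bp bin by distance from the summit (bp, x), for far intergenic peaks (blue) and all other peaks (grey) among the 8143 strongest of each replicate; lines are means and bands SDs of 3 replicates. The top-ranked word peaks at the summit, at 14.3% against 10.1% in other peaks, the Pho word peaks there too, and the Trl word is lower in far intergenic peaks than in others.

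The plot of words around summits shows a narrow rise of the 6-base word. In the central 50 bp bin this word was in 14.3% ± 1.81 of far intergenic peaks (SD, n = 3), and 100 bp to the right it was in 8.92% ± 0.308. Other peaks also rose at the centre, with 10.1% ± 0.130 there and 7.25% ± 0.399 at 100 bp. The difference from other peaks was not confined to the summit. In the IDR list the flanks at 500 bp held the word in 14.8% for members, 13.1% for other peaks and 10.9% for peaks at starts. For far intronic and nearer intergenic peaks the flank share was 14.5%. The word GCCAT, the core bound by the Polycomb recruiter Pho, rose to 17.2% ± 1.02 in the central bin, against 13.6% ± 0.188 in other peaks. The word GAGAG, bound by the GAGA factor Trl, was highest beside the summit, at 9.67% ± 1.24 and 9.88% ± 0.376 in the bins 100 bp to either side, against 7.65% ± 0.729 at the centre. Other peaks had this shape at a higher level, with 12.9% ± 0.815 and 12.5% ± 0.482 against 10.7% ± 0.449. The homeodomain core TAATTA was in 3.93% ± 0.287 of far intergenic peaks in the central bin, 1.75% ± 0.279 in the bin 150 bp to the left and 5.73% ± 0.844 in the bin 500 bp to the left. In other peaks these bins held it in 2.86% ± 0.204, 2.18% ± 0.375 and 4.16% ± 0.220.

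Other words were searched by their letters on both strands in the same window. GCCAT was in 191 members (29.5%, interval 26.0 to 33.2) against 19.1% of flanks and 24.7% of all IDR summits. In the replicates it exceeded the flanks by 9.27, 9.84 and 11.4 points, and the other peaks by 5.74 ± 0.543 (SD, n = 3). In the IDR list its share was 29.1% in intronic peaks over 5000 bp from a start and 27.7% in nearer intergenic peaks, close to that of members, and 18.9% at starts. GAGAG was in 96 members (14.8%) against 9.88% of flanks, but in 19.0% of all IDR summits, so members held it less often than other peaks, by -3.87 ± 0.546 points in the replicates. Peaks at starts held it in 23.0%. The Hth word TGACAG was in 38 members (5.86%) against 3.63% of flanks and 4.06% of all summits, and exceeded the flanks by 1.61, 1.73 and 3.02 points in the replicates. TTTATGA, the longer form of the top-ranked word with which it overlaps, was also in 38 members (5.86%), against 4.24% of flanks and 4.13% of all summits.

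The homeodomain core and the Hox composite were scarcer at member summits than in the flanks. TAATTA was in 40 members (6.17%, interval 4.45 to 8.31), fewer than the 10.3% of flanks, and in 5.15% of all IDR summits. In each replicate it was 3.07 to 4.93 points lower at the summit than in the flank, while members exceeded other peaks by 1.26 ± 0.215 points. That SD leaves out the counting error over regions. The interval holds the share of all summits, so the IDR count alone does not separate members from them. The composite TGATNNAT, of the kind bound by Hox proteins with Exd, was in 28 members (4.32%) against 8.95% of flanks and 4.35% of all summits. Runs of 6 A were in 16.2% of members and 23.8% of flanks. The word of the promoter factor DREF, ATCGATA, was in 2 members (0.309%) against 1.58% of all summits and 3.39% of peaks at starts. The repeat word CACACA was in 94 members (14.5%) against 9.34% of flanks and 16.6% of all summits. The longer homeodomain word TTAATTA was in 31 members (4.78%, interval 3.27 to 6.72) against 7.33% of flanks and 3.35% of all summits. In the replicates members exceeded other peaks by 1.06 ± 0.199 points, but the interval also holds the share of all summits. The GATA word GATAAG was in 25 members (3.86%) against 4.78% of flanks and 3.62% of all summits. The Twist word CATATG was in 10 members (1.54%) against 3.70% of flanks and 2.80% of all summits. The homeodomain, GATA and Twist words were thus less frequent at member summits than in their flanks. For TAATTA this was not particular to members: in other peaks it was in 2.86% of central bins, against 4.16% and 4.51% in those 500 bp to the left and right. Among 6-base words with no C or G the median difference between summit and flank was -6.79 points, and that of TAATTA was -4.09. Among those with 2 the median was -0.926, against -0.926 for GATAAG and -2.16 for CATATG. The part that composition plays in these words was not tested. Other words were rare: the Tinman word TCAAGTG was in 11 members (1.70%) against 1.41% of all summits, and the Myc word CACGTG in 9 (1.39%) against 1.62%. GTCACAC, the word of the promoter factor M1BP, was in 6 members (0.926%) against 1.14%. The Zelda word CAGGTAG was in 4 members (0.617%) against 0.332%, and the AP-1 word TGACTCA also in 4 (0.617%) against 0.700%. ACCGGTT, the word of Grainyhead, was in 0 members. The upper Clopper-Pearson bound was 0.568%, so the IDR count alone does not separate members from the 0.528% of all summits. In the replicates the word was in 0%, 0.157% and 0% of far intergenic summits, which differed from other peaks by -0.506 ± 0.104 points. That SD does not hold the counting error of so rare a word. With 3 replicates the smallest two-sided exact p is 0.25, so no p-value is given for words. Some words differed in direction between lists or by less than their SD: the share of CAGGTAG was above that of all summits in the IDR list, but in the replicates it differed from other peaks by -0.0544 ± 0.103 points, and TGATNNAT differed from them by 0.262 ± 0.373.

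Far intergenic DNA made up 20.1 Mb, or 15% of the chromosome arms, and held 0.530 times the share of peaks its length would give. Members numbered 32.2 per Mb, against 73.3 per Mb in intergenic DNA 500 to 5000 bp from a start, 60.2 in introns over 5000 bp from a start and 123 within 500 bp of a start. Among the strongest 8143 peaks of replicates 1, 2 and 3, 7.61%, 7.80% and 7.72% met the rule (7.71% ± 0.0927, SD, n = 3). The share was larger in weaker peaks. It was 6.27% in the strongest 10% of the IDR list and 9.20% in the weakest 10%, with intervals of 4.70 to 8.16 and 7.31 to 11.4. It was 11.7% in the 21857 pooled peaks under the IDR list, and 10.5% ± 0.0821 in all 30000 peaks of each replicate.

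Peak density fell with distance from a start. In the replicates it was 66.9 ± 0.742 summits per Mb at 2 to 5 kb (SD, n = 3), 48.9 ± 0.351 at 5 to 10 kb, 41.4 ± 1.36 at 10 to 20 kb and 8.94 ± 0.126 beyond 20 kb. No 2 of these distance classes overlapped between replicates. Part of the far DNA is repeat-rich: 14.2% of it is annotated as transposon, where no member had its summit (0 of 648, with an upper Clopper-Pearson bound of 0.568%). How well reads were placed in repeats was not tested. In 1 Mb windows with under 10% transposon the values were 71.2 ± 0.884, 54.0 ± 0.247, 53.3 ± 2.09 and 14.8 ± 0.211. There the classes at 5 to 10 kb and 10 to 20 kb overlapped, and the low value past 20 kb was still seen.

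**Figure D2:**
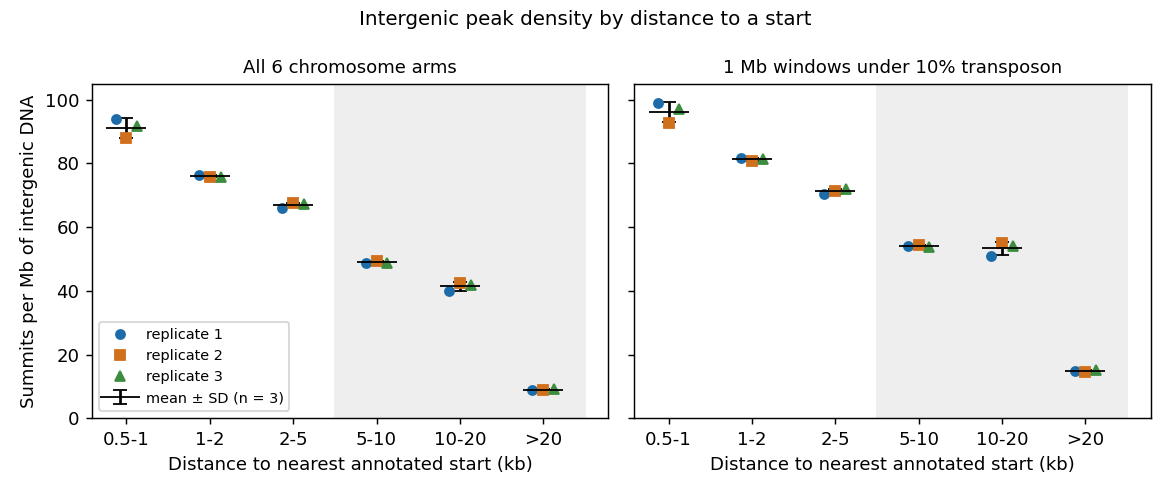
Summits per Mb of intergenic DNA (y) by distance to the nearest annotated start (kb, x), among the 8143 strongest peaks of each of 3 replicates (points), with mean and SD (bars); shaded classes are those over 5 kb. In all arms (left) density drops from 66.9 at 2 to 5 kb to 8.94 past 20 kb, and in transposon-poor windows (right) it is 54.0 and 53.3 in the middle classes and 14.8 past 20 kb.

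The member distances had a median of 9046 bp, quartiles of 6564 and 13840 bp and a highest value of 38509 bp. The 3 members just inside the limit lay 5003, 5011 and 5029 bp from a start, at 2.73, 1.21 and 0.750 times the median signal of the IDR list. The 3 intergenic peaks just outside lay at 4999, 4980 and 4967 bp, at 0.756, 1.15 and 0.810 times. The first inside lies on 3R, 27212674 to 27213564, between the Notch ligand gene Ser and lncRNA:CR34006. The others inside lie between Kpc2 and CG15127 on 2R and between CG33262 and snky on 3L.

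The arms differed in members per Mb of far intergenic DNA. Replicate values were 41.4 ± 0.321 on 2L, 37.2 ± 0.373 on 3L and 37.5 ± 1.00 on 3R (SD, n = 3), and lower on 2R at 18.4 ± 1.75 and on the X at 22.4 ± 1.88. The IDR members numbered 128, 211, 150, 89 and 70 on these arms in that order. In transposon-poor windows the values were 60.3 ± 0.893, 46.2 ± 0.463, 37.8 ± 1.15, 32.7 ± 3.20 and 29.2 ± 2.81, so that 2L stood above the rest, and 2R, 3R and the X lay closer together. Windows with at least 10% transposon held 20 members in 5.39 Mb, 3.71 per Mb, against 42.7 per Mb in the others. Chromosome 4, with 17 IDR peaks, had 0 members in 0.126 Mb of far intergenic DNA, of which 76.0% is transposon. Male embryos carry a single X, and the part of this in the X values was not tested.

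**Figure D3:**
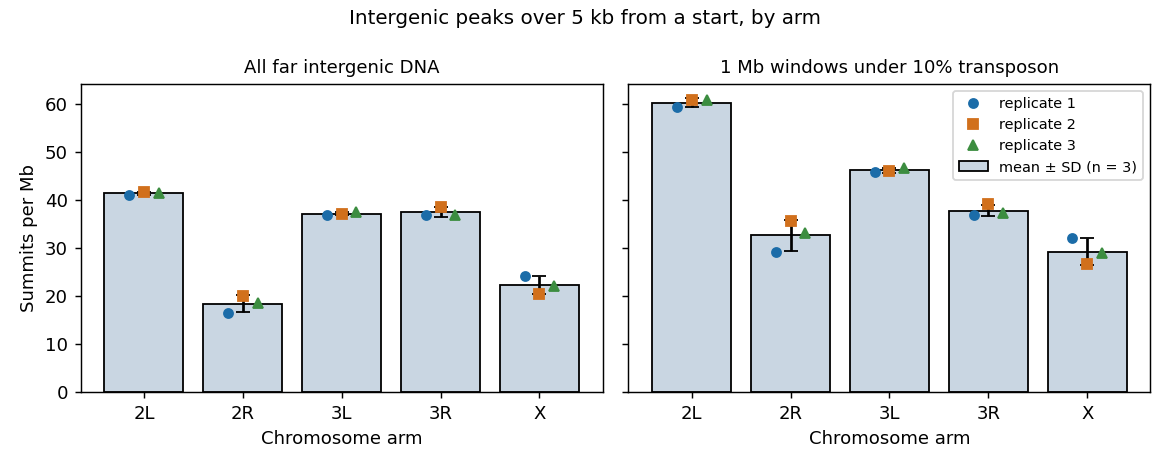
Far intergenic summits per Mb (y) by chromosome arm (x), in all such DNA (left) and in 1 Mb windows with under 10% transposon (right); bars are means, error bars SDs and points the 3 replicates. 2L is at 41.4 and 2R at 18.4 per Mb on the left, and at 60.3 and 32.7 on the right.

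Members were found again in the replicate lists slightly less often than other peaks. A peak among the strongest 8143 of replicates 1, 2 and 3 overlapped 88.0%, 85.8% and 87.5% of members (87.1% ± 1.14), against 88.5% ± 1.44 of all other IDR peaks. The difference of -1.37 ± 0.486 points had the same sign in all 3 replicates (two-sided exact sign-flip test over 3 replicates, p = 0.25, the smallest it can give). All 3 replicates supported 458 members, or 70.7%, against 72.8% of all IDR peaks. Another 4 members had no such peak in any replicate, and 643 had some peak in all 3. The IDR list was made from these replicates, and they were called against 1 control file, so this support is not independent evidence.

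Strength was the signal value of the replicate peak divided by the median of that replicate's list, and it was close to that of other peaks. The medians over members were 2.40, 2.30 and 2.38 in the 3 replicates. The difference of members from all other IDR peaks was -0.0895 ± 0.0189 (SD, n = 3). It was -0.175 ± 0.0306 from peaks at starts and -0.0621 ± 0.0130 from intergenic peaks nearer a start. From intronic peaks over 5000 bp from a start it was 0.0306 ± 0.0343, a difference whose SD exceeds its size. The limit on distance moved these sizes: against nearer intergenic peaks the difference was -0.195 with starts over 2000 bp away and -0.135 over 10000 bp, and against all others it was -0.160 over 10000 bp. Against far intronic peaks it turned to -0.0423 over 10000 bp, and to -0.00990 with each distinct interval counted once. Only the members' limit moved in these alternatives. The classes compared kept their 5000 bp limit, less any peaks that had become members. At 5000 bp each difference had the same sign in the 3 replicates and an exact two-sided p of 0.25, adjusted 0.25 over the 4 comparisons. Spearman's rho of strength over members was 0.771 for replicates 1 and 2 (n = 643), 0.840 for 1 and 3 (n = 645) and 0.798 for 2 and 3 (n = 646). In other peaks it was 0.758, 0.828 and 0.771. These values describe regions that the IDR list kept for agreement between replicates, so they are not independent evidence. Members sharing an interval also repeat a value. The median coefficient of variation over members was 13.5%, against 14.6% in other peaks.

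Only 4 members were among the first 100 ranks of the IDR list, by the authors' signal. The first, at rank 14, lay on 3L, 10736714 to 10737848, in the gap between NijA, a Ninjurin adhesion gene, and CG43245, and 34595 bp from the nearest start. Its interval also holds a further member, so both show the same values. Its signal was 17.4, 16.3 and 15.7 times the list median in replicates 1, 2 and 3 (16.5 ± 0.860, SD), or 6.97 times the median member. It holds no TTTATG within 50 bp of its summit, and no GAGAG or other listed word there. A wider window of 300 bp, printed for this member alone, carries GAGAG and CTCTC runs on both sides, marked in capitals. The share of members or other peaks with GAGAG in such a window is not given, so these runs have no background.
Member 1, NijA to CG43245, chr3L:10737180-10737479: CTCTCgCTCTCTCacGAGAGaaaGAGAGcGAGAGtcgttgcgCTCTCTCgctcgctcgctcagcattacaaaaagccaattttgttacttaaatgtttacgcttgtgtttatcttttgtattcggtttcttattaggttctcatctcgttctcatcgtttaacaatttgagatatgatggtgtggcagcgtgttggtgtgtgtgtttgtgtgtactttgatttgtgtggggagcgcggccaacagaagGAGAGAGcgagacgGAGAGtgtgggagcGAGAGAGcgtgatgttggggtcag

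The next strongest members stood near genes of several kinds. Member 2, on 3L at 39976 to 40690 between the receptor gene mthl8 and CG43149, had 9.97, 10.2 and 9.16. Member 3, on 3L at 14157841 to 14158499, lay 19380 bp from the start of D (Dichaete), a Sox gene of the neuroectoderm, and had 9.47, 10.2 and 9.08. Member 4, on 3R at 16793627 to 16795120 beside Glut3 in the Bithorax complex, had 11.8, 8.11 and 10.3, the widest spread of these 4. The 3 replicates of each of these stayed above 8 times the list median.

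Among the rest of the 20 strongest were exex, a motor neuron homeodomain gene (member 7, 7.43, 7.81 and 7.65), and the Wnt ligand genes Wnt6 and Wnt10 on either side of member 9 (6.07, 7.30 and 7.46). Member 5, at 6.72, 9.31 and 7.53, lay between lncRNA:CR45287 and CG14020, with the heart T-box gene mid the next coding gene to its left. Member 10 lay by Su(z)2, a Polycomb group gene (7.29, 5.91 and 7.51). Member 11 lay between toe and eyg, a pair of Pax-type genes (6.70, 6.97 and 7.11). Member 8, between Rilpl and the neuronal cytoskeleton gene futsch, had 7.64, 7.19 and 5.99. Members 13 to 20 were bordered by corto, CG7560, noncoding genes near tsh, lace and noc, among others, with means from 6.13 to 7.65 times the list median. Among these, members 16 and 19 share an interval, so both show 9.08, 7.02 and 6.83.

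**Figure D4:**
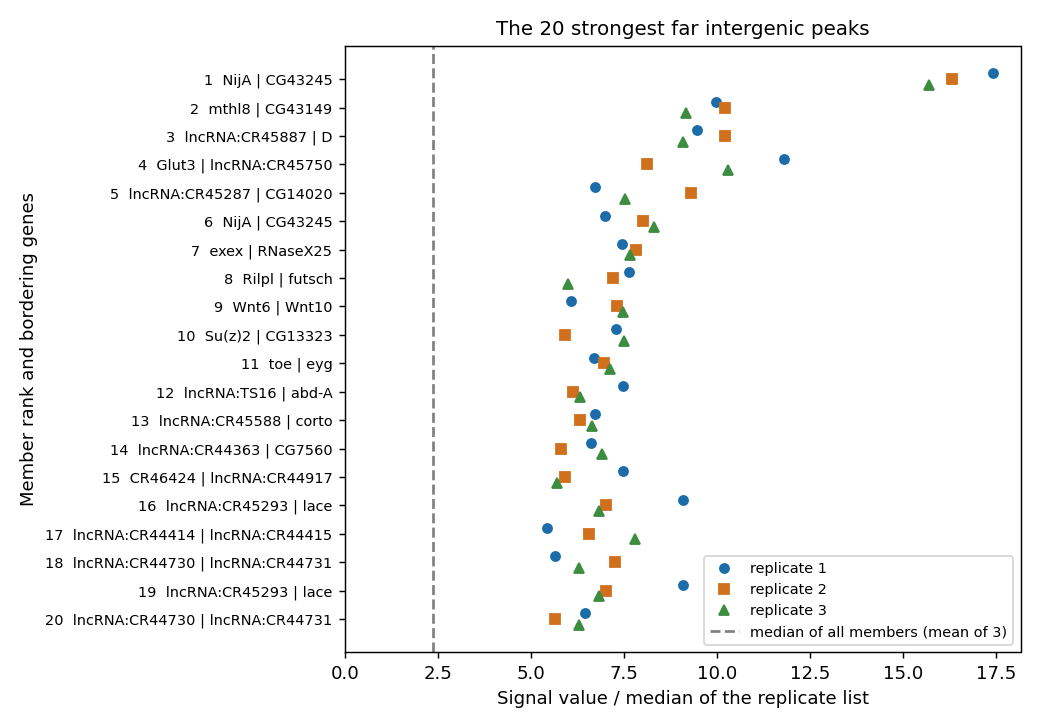
Replicate values of the 20 strongest members (x, signal value divided by the median of that replicate's list; y, rank by IDR signal and the genes bordering each gap), with the 3 replicates as points and the mean over replicates of the member median, 2.36, as a dashed line. Member 1 is at 15.7 to 17.4, and no replicate of any of the 20 lies below 5 times the list median.

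The Bithorax complex held 5 members of its 124 IDR peaks, in 2 intervals. The 3 summits in the interval beside Glut3 share the values of member 4, given above. Member 12 and a further summit lay on 3R, 16805940 to 16806876, between lncRNA:TS16 and abd-A, 5042 bp from the nearest start and 873 bp past the end of abd-A for the first. Their shared peak had 7.47, 6.12 and 6.31 (6.63 ± 0.729). The sequence printed above for member 12 holds GCCAT but not TTTATG.

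Members were gathered in some gaps. Of 1422 gaps between neighbouring genes that contain far intergenic DNA, 328 (23.1%) held a member, and 182 of these held 1. The 19 gaps with 5 or more held 149 members, or 23.0%. The median gap with a member was 19.9 kb long and that without 11.7 kb. The share of gaps with a member rose from 5.10% below 2 kb of far DNA to 48.6% at 20 to 40 kb, and was 24.1% above 40 kb. A longer stretch has more room for a member, and density did not rise with it. Members per Mb of far DNA were 79.2, 44.1 and 10.3 in these classes. Of the members, 312 had coding genes on both sides, 270 on a single side and 66 on neither. Another member lay within 2 kb of 38.9% of them, and the 99 members that share an interval add to this share. Members were not closer to other peaks in general. Their median distance to the next IDR summit was 2818 bp, against 1352 to 2146 bp in the other classes.

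The gap between NijA and CG43245 held the most, 30 members in 25 intervals over 75 kb. It took 30, 25 and 32 of the strongest peaks of replicates 1, 2 and 3. Member strengths in it ran from 1.48 ± 0.334 to the 16.5 ± 0.860 of member 1, and 26 of the 30 were supported by all 3 replicates. It holds 25 of the 74 members over 20 kb from any start, so the farthest class of distance rests in part on this gap.

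**Figure D5:**
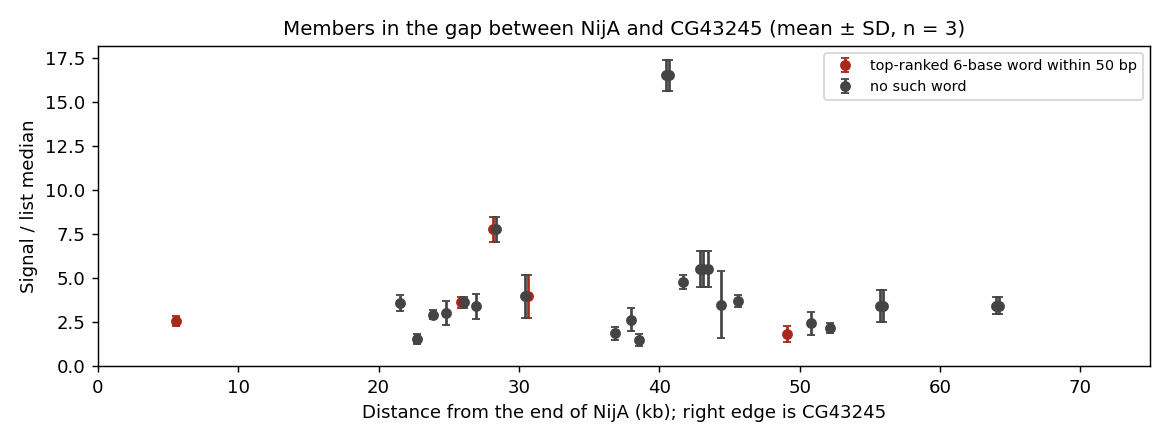
Strength of the 30 members (signal value divided by list median, y; mean ± SD of 3 replicates) by distance from the end of NijA (kb, x) in the gap to CG43245, with members that hold the top-ranked word within 50 bp in red. The highest values are 16.5, for member 1 and the summit that shares its interval near 40 kb, and 7.76, for member 6 and the summit that shares its interval near 28 kb.

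In the gap map 5 of the 30 members hold the word, not the strongest but member 6 among them (6.98, 8.0 and 8.30). The next gaps were Su(z)2 to CG13323 with 17 members, ems to Art9 with 10, vvl to lncRNA:CR45115 with 10, and Tollo to Best4 with 7. Here ems encodes a head homeodomain protein, vvl a POU-domain protein of the trachea, and Tollo a Toll-family receptor. Replicates placed 15, 17 and 13 peaks in the gap by Su(z)2, and 10, 10 and 9 in that by ems. In the gap by vvl they placed 11, 12 and 12, and in that by Tollo 5, 8 and 7. The best members were at 6.90 ± 0.870, 5.09 ± 0.087, 5.04 ± 0.184 and 5.06 ± 0.294 times the list median in these gaps. The 5 members farthest from any start were 2 between GluRIB, a glutamate receptor gene, and PGRP-LA, at 38509 and 37676 bp with 1.75 ± 0.141 and 2.47 ± 0.279, and 3 between NijA and CG43245, at 37096, 36877 and 36516 bp with 1.48 ± 0.334 to 2.64 ± 0.651.

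Genes on the borders of these gaps were compared with developmental lists chosen with earlier results known. Of 1789 coding genes that border far intergenic DNA, 410 (22.9%) border a gap with a member. Signalling genes did so in 10 of 18 cases, with 6 members each beside wg and Wnt4, which share a gap, and beside pyr and ths, FGF ligand genes that share another. The best member between Wnt4 and wg had 4.60, 3.43 and 6.23 (4.75 ± 1.40). Trachea and epidermis genes did so in 5 of 9 cases, with 10 members beside vvl and 2 beside serp and verm, which share a gap. Neuroblast genes did so in 4 of 7 cases, with 6 members beside Dr, 3 beside SoxN (best 5.66 ± 0.210), 2 beside hb and 2 beside D.

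Segmentation genes did so in 8 of 21 cases. Both members beside hb, a gap gene, took the value 5.14 ± 0.644. The 3 beside ptc, the Hedgehog receptor gene, reached 3.13 ± 0.287, and the 5 beside en, a homeodomain gene of posterior compartments, reached 2.73 ± 0.540. Those beside opa (4), odd (2), kni (2) and knrl (1) reached 2.51 ± 0.481, 2.16 ± 0.0257, 2.51 ± 0.962 and 1.95 ± 0.700. The odd value rests on 2 replicates, since replicate 1 had no peak over that member.

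Of the Hox genes, 1 of 3 bordered a member, namely abd-A. With gaps taken between coding genes only, Antp also bordered members, in the gap to Sodh1, as did tsh among cofactors and grim among cell death genes. Cofactors did so in 3 of 7 cases, en, hth (1 member at 1.74 ± 0.392) and disco (1 at 2.76 ± 0.183). Known targets of abd-A or Ubx did so in 5 of 10 cases, wg, opa, rpr, salm and ap. The cell death gene rpr was the 1 of 4 in its list, at 2.37 ± 0.556 for the better of its 2 members, salm had 1.52 ± 0.232 and ap 2.03 ± 0.680. Heart genes did so in 3 of 7 cases, with 4 members beside mid (best 4.85 ± 0.483), 4 beside Doc2 (best 6.07 ± 1.13) and 1 beside H15. Mesoderm genes did so in 3 of 9, visceral mesoderm and midgut genes in 3 of 8 and oenocyte genes in 1 of 3.

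Neuron and glia genes bordered a member in 0 of 4 cases, hemocyte genes in 0 of 2, germline genes in 0 of 1 and ribosomal protein genes in 0 of 7. Receptors of smell and taste did so in 6 of 36 cases. With gaps between coding genes only, 11 receptor genes and 1 ribosomal protein gene, RpL10Aa, bordered a member. The median far intergenic DNA beside a gene was 5.40 kb over all coding genes and from 0.0970 kb for the germline list to 23.3 kb for the neuroblast list. The share of gaps with a member rose with that length up to 40 kb, so the lists' counts are not compared with each other, and lists share genes such as wg, Dr and mid.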

How the data were processed

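The authors deposited narrowPeak lists on dm6: 1 for each of 3 biological replicates, 1 for the pooled alignments and 1 kept after an irreproducible discovery rate (IDR) threshold, per the text records that came with the files. No aligner, peak caller, IDR threshold or read depth is stated in the sources used here. Signal values were used as a score of the authors' caller, deposited per peak, only within a list or relative to its median. The deposited −log10 q-value and p-value columns were not used, nor were other values. Replicate lists end at 30000 peaks each, so the strongest 8143 of each were compared.

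Genes came from Ensembl release 115 (18164 on the 6 main arms, 13945 of them coding), with 5809 transposon records left out, and sequences from RefSeq release 6. A summit is the start plus the summit offset column, another deposited column given per peak. Peaks were matched by an overlap of at least 1 bp. Words were sought on both strands within 50 bp of a summit and at 500 bp to either side. Members, gene lists and words were chosen with earlier results of these data known, and TTTATG was chosen from all 6-base words at these summits. The genes named border the 20 strongest members, the 5 farthest, the 5 fullest gaps, the Bithorax members and the limit, and include those of the Hox, cofactor, target, cell death and segmentation lists beside a member. Other list genes were named after their values were seen.

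Tests were two-sided exact sign-flip permutation tests over the 3 replicates, whose smallest p is 0.25. Scripts were tested on simulated data, with Python 3.11.15, numpy 2.4.6, scipy 1.17.1 and pandas 2.3.3. Alternatives were other distance limits, coding genes only, the stronger 50% of the list, distinct intervals, other overlap rules, and each replicate left out. In the gene lists 3 entries could not be matched by symbol.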

Additional observations from a re-analysis of the deposited data

How the results depend on the processing

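The number of members follows its definition: 1247 with starts over 2000 bp away, 283 over 10000 bp, 1126 with protein-coding genes only, 299 in the stronger 50% of the list. Their share of the strongest replicate peaks, 7.71%, was 15.1% and 3.41% at those distances, 7.18% with 50% as many peaks, 10.5% with all peaks, and 7.67% to 7.76% without 1 replicate. Replicate support of 87.1% was 64.3% with an overlap of 50% of both peaks, 80.8% with summits within 100 bp, 99.7% with all replicate peaks, 99.3% in the stronger 50%, and 86.7% to 87.7% without 1 replicate. Strength of members minus far intronic peaks (0.0306) reversed to -0.0423 with members over 10000 bp from a start. The intronic peaks were still those over 5000 bp away. The difference also reversed, to -0.00990, with each distinct interval counted once. The cause was not tested. Coding genes beside members numbered 410, 230 in the stronger 50%, and 555 with gaps between coding genes. The difference of the 6-base word from other peaks, an alternative added after the data were seen, was 6.89 points at 2000 bp and 6.21 at 10000 bp, and 7.21 to 7.98 without 1 replicate. Against nearer intergenic peaks the strength difference of -0.0621 ranged from -0.0548 to -0.195, without changing sign. Of 112 alternative values, 2 reversed and 37 moved by more than the replicate spread or, for counts, by more than 1.5 times. The other 73 kept direction and side of the test, which leaves room for changes of size, or stayed within those limits. No paired analysis was possible because there was no second group of samples to pair; differences between classes of peaks were taken within each replicate. Depth is unknown, so no limit from reads could be set.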
